A study of Mus musculus with 38 samples.

Results

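Among the H3K27ac peaks of depolarised mouse cortical neurons, 534 lay outside the authors' distal list, were also acetylated in silenced neurons and held a c-Fos position. They were chosen by measured values, namely the H3K27ac lists of both conditions and the combined c-Fos list. They are called c-Fos-bound promoter-proximal peaks here, after the study's division into distal and other peaks. The members were found in the list for the whole genome after KCl, which holds 29418 peaks. Of these, 10862 (36.9%) were not in the distal list, 10357 of which overlapped a peak of silenced neurons by at least 1 bp. The 534 are the 5.16% of these 10357 that contained at least 1 of 12594 positions in the authors' combined c-Fos list, and the other 9823 served as comparison. Together the 534 peaks held 561 positions (4.45% of the list), while 1559 (12.4%) lay in distal peaks acetylated in both conditions and 9455 (75.1%) lay outside H3K27ac peaks after KCl.

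Cortex was taken from C57BL/6 embryos at embryonic day 16.5, and neurons were grown for 7 days in vitro. Activity was blocked overnight in all groups by 1 µM TTX, which blocks sodium channels, together with 100 µM DL-AP5, which blocks NMDA receptors. The neurons then stayed silenced (unstimulated) or received KCl for 2 h. H3K27ac was mapped by ChIP-seq with ab4729 in biological samples 1 and 2, whose reads the authors merged, so that each condition has a single list. In uninfected neurons of biological samples 3 and 4, c-Fos (antibodies sc52 and sc7202) and FosB (sc48) were mapped in both conditions, and JunB (sc46) in biological sample 4 alone. Biological samples 5 and 6 were infected with control shRNA, c-Fos shRNA or FosB shRNA and all received KCl. There, c-Fos was mapped with sc52 under control and c-Fos shRNA, and FosB with sc48 under control and FosB shRNA. The labels call the cells cortical neurons and do not say what other cells the cultures held.

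H3K27ac marks active promoters and enhancers. c-Fos and FosB are Fos-family proteins that neuronal activity induces and that bind DNA as partners of Jun-family proteins such as JunB, and these pairs make up the transcription factor AP-1. In stimulated neurons AP-1 is best known for its binding at distal enhancers, and promoters of active genes carry H3K27ac before any stimulus.

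The label of the group was checked as far as the lists allow. Of the 534 peaks, 532 (99.6%) overlapped a non-distal peak of silenced neurons as well, as did 99.8% of the comparison. Both sets had to be non-distal after KCl and to overlap a silenced peak, so the rule largely sets these shares. CBP is a coactivator that acetylates histones, and H3K4me1 is a mark found at enhancers. A site from the deposited list of distal places with CBP and H3K4me1, which its name credits to Kim et al., lay in 26 members (4.87%, against 0.763% of all shared non-distal peaks and 59.8% of distal shared peaks with a c-Fos position). In 18 of these 26 it lay within 500 bp of the c-Fos position. How far a non-distal peak lies from a transcription start site was not measured here.

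The peak lists differed between biological samples at promoter-proximal acetylation, and this touches every share below. The comparison peaks were overlapped more often in biological samples 3 and 5 than in 4 and 6 by each kind of library mapped in both. For KCl FosB (control shRNA in 5 and 6) the shares were 35.8% and 32.8% in samples 3 and 5, against 1.34% and 2.23% in samples 4 and 6. For unstimulated FosB they were 20.5% in sample 3 and 0.560% in sample 4. List lengths ranged from 557 to 28885 peaks, and sequencing depth is unknown, as no read counts are given. Comparisons were therefore made within each library first.

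The c-Fos lists with sc52 are given as a description only, since the labels attach the combined positions to the 4 KCl sc52 libraries. After KCl, sc52 peaks overlapped 96.8% of members in biological sample 3, 30.1% in sample 4, 98.7% in sample 5 and 58.2% in sample 6 (control shRNA in 5 and 6), beside 52.1%, 12.6%, 46.5% and 13.4% of all shared non-distal peaks. Sample 4 was the lowest and had the shortest of these lists. Every member was overlapped in 2 or more of these lists: 234 in 2, 152 in 3 and 148 in 4. In sample 5 the median distance from the c-Fos position to the centre of the nearest sc52 peak in the same member was 0 bp, against 57 to 82 bp in the other 3 samples.

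A promoter-proximal peak without a combined position was often not free of c-Fos peaks. Of the 9823 comparison peaks, 5856 (59.6%) were overlapped by 1 or more KCl sc52 lists, 3421 (34.8%) by 2 or more and 719 (7.32%) by all 4. Many of those peaks were also listed without stimulation or under c-Fos shRNA. Of the 719 peaks in all 4 lists, 88.9% and 85.0% had an unstimulated sc52 peak in biological samples 3 and 4, and 98.3% and 86.5% had one under c-Fos shRNA in samples 5 and 6. Of the 3967 comparison peaks with no KCl sc52 peak, 3.63% and 0.378% had an unstimulated one.

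The sources used here do not say how the combined list was made, and a list that leaves out c-Fos peaks found without stimulation or under c-Fos shRNA would itself set the shares of such peaks at members. They are therefore a description of what the rule gathered. Members held unstimulated c-Fos peaks less often than the comparison did, and most of these peaks lay away from the c-Fos position. Unstimulated sc52 peaks overlapped 14.4% and 6.18% of members in biological samples 3 and 4, against 22.2% and 12.2% of the comparison (21.8% and 11.9% of all shared non-distal peaks). The peak held the combined position itself in 17 of the 77 members so overlapped in sample 3 and in 0 of 33 in sample 4. The median distance from the position to the centre of the unstimulated peak was 1336 bp and 1781 bp. Under c-Fos shRNA, sc52 peaks overlapped 41.2% and 7.87% of members in samples 5 and 6, against 45.7% and 12.99% of the comparison (45.4% and 12.7% of all). They covered the combined position in 98 of 220 and 5 of 42 members.

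A region of chromosome 16 held sc52 peaks of both kinds, over the position and beside it. Its H3K27ac peak reached from 96347516 to 96350892 of build mm9 after KCl and from 96347969 to 96350945 in silenced neurons, and its c-Fos position is 96348433. Over that position lay sc52 peaks after KCl in biological sample 3 (96348130 to 96348882), sample 5 (96347969 to 96348898) and sample 6 (96348086 to 96348800). No unstimulated or c-Fos shRNA peak covered it. Beside it, another sc52 peak, which ran from 96349027 to 96349720 in silenced neurons of sample 3, was listed in silenced neurons of both samples, after KCl in samples 3, 4 and 5, and in both c-Fos shRNA libraries. No JunB peak was listed in the region in either condition.

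**Figure D1:**
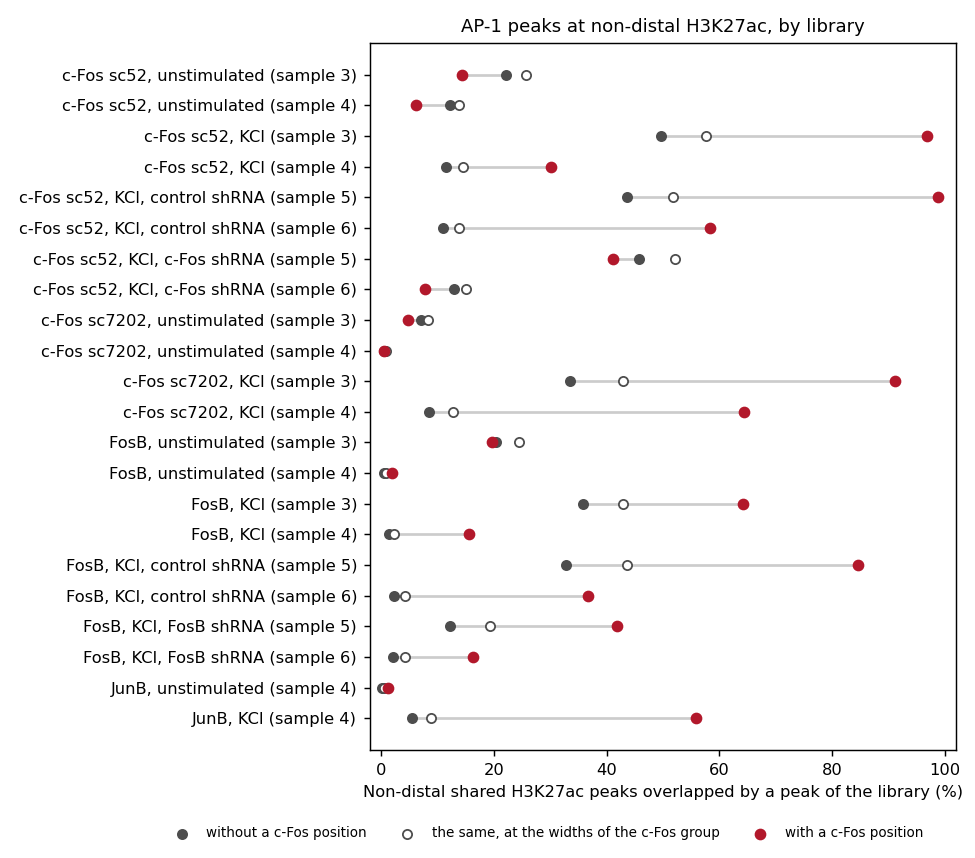
Share of shared non-distal H3K27ac peaks overlapped by a peak of each AP-1 library (x axis, %), 1 row per library with its biological sample in brackets. Red points are the 534 peaks with a c-Fos position, dark grey points the 9823 without, and open points the same 9823 weighted to the widths of the 534. Red lies to the right of dark grey in all KCl libraries except those under c-Fos shRNA, and to the left in the unstimulated c-Fos libraries.

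FosB was found in members more often than in the comparison in 4 of 4 KCl libraries. The labels do not attach FosB libraries to the combined list, whose making is not described. These libraries share biological samples 3 to 6 with the sc52 libraries that the labels do attach to it. FosB peaks overlapped 64.2% of members in biological sample 3, 15.5% in sample 4, 84.6% in sample 5 and 36.7% in sample 6 (control shRNA in 5 and 6), beside 37.3%, 2.08%, 35.5% and 4.01% of all shared non-distal peaks. The comparison gave 35.8%, 1.34%, 32.8% and 2.23%. Members differed widely between samples, and sample 4 had the lowest share in both sets. The mean was 50.3% ± 30.4 (SD, n = 4 libraries) in members and 18.05% ± 18.8 in the comparison. The difference within a library was 32.2 percentage points ± 15.6 (SD, n = 4; exact two-sided sign-flip test, p = 0.13, Benjamini-Hochberg adjusted over 5 tests p = 0.3125), and this is the smallest p that 4 libraries allow. It was 24.3 points in samples 4 and 6 and 40.1 in samples 3 and 5. Against the comparison peaks that had an sc52 peak in 2 or more KCl lists it was 18.8 points, with the same p by the exact test. FosB overlapped 60.1%, 2.98%, 57.4% and 5.32% of those peaks in samples 3 to 6, so the gap in sample 3 was small. Among peaks in exactly 2 sc52 lists, FosB of sample 3 overlapped fewer members (51.7%) than comparison peaks (63.6%). It overlapped more members in 3 lists (65.8% against 57.1%) and in 4 (82.4% against 52.85%). FosB of samples 4, 5 and 6 was higher in members at each number of lists. Peaks of all 4 KCl FosB libraries met at 54 members (10.1%, against 0.946% of all shared non-distal peaks), and 47 members (8.80%, against 49% of all) had none.

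JunB, mapped in a single library per condition, showed the same direction. After KCl its peaks overlapped 298 members (55.8%, Wilson 95% interval 51.57 to 59.96%) and 534 comparison peaks (5.44%, 5.00 to 5.90%), beside 8.03% of all shared non-distal peaks. In silenced neurons JunB overlapped 7 members (1.31%, against 0.309% of all). There is no replicate check for JunB, and these intervals cover counting error only. FosB and JunB were both mapped in biological sample 4, where 77 of the 83 members with a FosB peak (92.8%) also had a JunB peak, against 72 of 132 comparison peaks (54.5%). Whatever their FosB, 55.8% of members and 5.44% of the comparison had JunB. A higher JunB share at peaks with FosB was therefore found in both sets and is not particular to members.

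The second c-Fos antibody, sc7202, overlapped 91.2% and 64.4% of members after KCl in biological samples 3 and 4, against 33.4% and 8.51% of the comparison and 36.4% and 11.4% of all shared non-distal peaks. The difference was 57.8 and 55.9 points, close together although the shares were not. These libraries map the protein that the rule used, in the same biological samples, so the difference is a description.

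**Figure D2:**
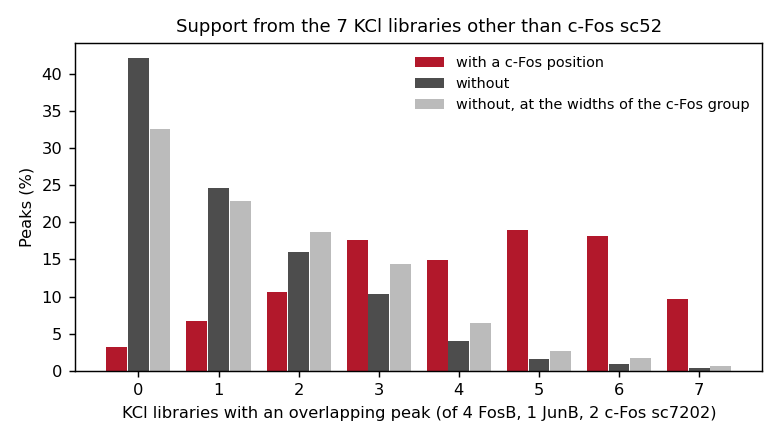
Share of peaks (y axis, %) by the number of KCl libraries with an overlapping peak (x axis), among the 7 libraries of FosB, JunB and c-Fos sc7202. Bars stand for the 534 peaks with a c-Fos position (red), the 9823 without (dark grey) and the latter weighted to the widths of the 534 (light). The red bars are highest at 5 libraries (18.9%) and the dark grey ones at 0 (42.1%).

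Counting the 7 KCl libraries of FosB, JunB and c-Fos sc7202 together, the median member was overlapped in 4 and the median comparison peak in 1. All 7 overlapped 52 members (9.74%, against 0.84% of all shared non-distal peaks), and none overlapped 17 (3.18%, against 40.1% of all). The 7 libraries come from 4 biological samples, so they are not 7 independent measurements.

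Support varied among the members themselves. With the number of KCl sc52 lists at a member rising from 2 to 3 to 4, JunB overlapped 26.9%, 65.1% and 91.9% of them. FosB of biological sample 6 overlapped 8.97%, 49.3% and 67.6%. These sc52 lists are those attached to the combined list and include samples 4 and 6, from which these JunB and FosB libraries came. The median width of the members was 3192, 4182 and 4192 bp. The 26 members with a CBP site were overlapped by JunB in 84.6% of cases and by FosB of sample 6 in 76.9%, against 54.3% and 34.6% of the other 508. The 26 were wider, with a median of 6324 bp against 3574 bp. The direction turned for FosB of sample 3, with 46.2% against 65.2%. The members with 2 or more c-Fos positions, 25 in number, were overlapped by JunB in 80.0% of cases, against 54.6% of those with 1, and had a median width of 5844 bp against 3579 bp. JunB overlapped 32.1% of the 134 narrowest members (median width 2440 bp) and 71.6% of the 134 widest (7040 bp). Just outside the rule lay 26 comparison peaks with a c-Fos position within 500 bp of an edge, of which JunB overlapped 38.5%.

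The share of peaks overlapped differed with peak width, and the members differed from the comparison in width. The members had a median width of 3670 bp (quartiles 2792 and 5302 bp) after KCl, against 2755 bp (2256 and 3526 bp) in the comparison. Members made up 2.23% of shared non-distal peaks in the narrowest of 10 width classes and 15.7% in the widest. When the comparison was weighted to the width deciles of the members, its FosB shares became 42.9%, 2.32%, 43.6% and 4.25% in biological samples 3 to 6. The difference was then 27.03 points ± 12.2 (SD, n = 4; exact sign-flip test, p = 0.13), again higher in members in 4 of 4 libraries. For JunB the weighted comparison was 8.90%. Within each of the 10 width classes JunB was more frequent in members, with 47.8% against 1.58% in the narrowest and 69.9% against 15.8% in the widest. Its lowest share of members was 23.5%, in class 2, against 1.57% of the comparison. FosB of samples 3, 5 and 6 was also higher in members in each class. FosB of sample 4 overlapped 0% of the 17 and 19 members of classes 2 and 3, against 0.098% and 0.595% of the comparison.

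**Figure D3:**
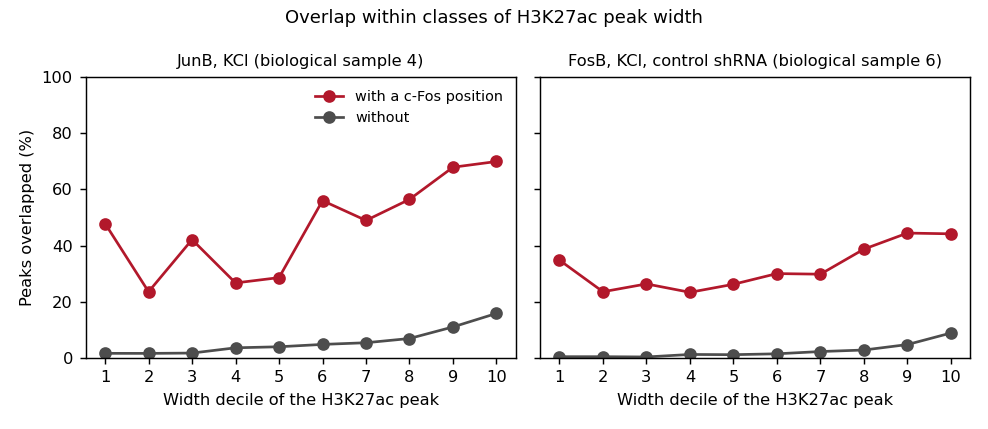
Share of peaks overlapped (y axis, %) within 10 classes of H3K27ac peak width, from the narrowest to the widest (x axis), for KCl JunB of biological sample 4 (left) and FosB with control shRNA of sample 6 (right). Red is peaks with a c-Fos position and dark grey those without, which stay under 16% in every class. The red points of the classes 2 and 3 rest on 17 and 19 peaks.

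After stimulation the AP-1 lists covered more members, and the change can be set beside that of the comparison. FosB went from 19.7% to 64.2% of members in biological sample 3 and from 1.87% to 15.5% in sample 4, beside 20.4% and 0.628% of all shared non-distal peaks before KCl. The comparison went from 20.5% to 35.8% and from 0.560% to 1.34%, so that the members' change exceeded it by 29.2 and 12.9 points. The mean difference in members was 29.1 points (two-sided exact test permuting the libraries, 2 against 2, p = 0.67, adjusted p = 0.67). That test leaves out the pairing by biological sample, within which the change was 44.6 points in sample 3 and 13.7 in sample 4. The SD of the shares between samples was 34.4 after KCl and 12.6 without stimulation. The sc7202 lists went from 4.87% to 91.2% and from 0.562% to 64.4% of members (7% and 0.618% of all shared non-distal peaks before KCl), a mean difference of 75.1 points. Because the members were chosen by c-Fos after KCl, this direction is set by the choice and the value is a description. JunB went from 1.31% to 55.8% in its single pair. The FosB and JunB libraries share biological samples with KCl sc52 libraries attached to the combined list. The choice of members can therefore favour their rise and its excess over the comparison. The FosB test does not allow for this. With sc52 the members went from 14.4% to 96.8% and from 6.18% to 30.1%, while the comparison of sample 4 went from 12.2% to 11.6%.

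List length enters these changes. With both lists of a biological sample cut to equal length by keeping the peaks with the best scores, the difference in members was 7.30 points for sc7202 and 11.7 points for FosB (exact permutation test, p = 0.67). The reduction removes most KCl sc7202 peaks, because the unstimulated lists are short. Of the 534 members, 369 (69.1%) had no peak in any of the 7 unstimulated AP-1 lists, as had 61.7% of the comparison.

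Under c-Fos shRNA the c-Fos lists covered fewer members than under control shRNA, and slightly more of the comparison. In biological sample 5, sc52 peaks overlapped 98.7% of members with control shRNA and 41.2% with c-Fos shRNA, and in sample 6 they overlapped 58.2% and 7.87%. In the comparison the shares were 43.6% and 45.7% in sample 5, and 10.95% and 12.99% in sample 6. Of the members with a control peak, 41.2% and 12.5% also had a c-Fos shRNA peak, against 74.5% and 66.45% of such comparison peaks. The level of c-Fos protein left was not measured here. These values are a description, since control shRNA libraries belong to those attached to the combined list.

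The FosB libraries under control and FosB shRNA were not among those attached to the combined list, but they share biological samples 5 and 6 with the control sc52 libraries that were. FosB peaks overlapped 84.6% of members with control shRNA and 41.8% with FosB shRNA in biological sample 5, and 36.7% and 16.3% in sample 6, beside 13.8% and 2.84% of all shared non-distal peaks under FosB shRNA. The mean difference was -31.65 points (the same exact permutation test, p = 0.67, adjusted p = 0.67), less than the spread between the samples. Each member share under FosB shRNA was lower than its own control. The members were chosen by a list attached to control shRNA libraries of these samples, which can favour that direction. The test does not allow for this. With lists of the same length the mean difference in members was -12.4 points (exact permutation test, p = 0.67). In the comparison the shares were 32.8% and 12.3% in sample 5, and 2.23% and 2.11% in sample 6. In sample 5 the control FosB peaks were also wider, with a median of 767 bp against 221 bp under FosB shRNA over the whole lists. Counting a FosB peak only where its centre lay inside the H3K27ac peak, the mean difference was -31.4 points.

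At the c-Fos positions themselves, where the width of the acetylated region plays no part, FosB was less frequent in promoter-proximal members than in distal H3K27ac peaks acetylated in both conditions. FosB peaks held 29.8% of the 561 positions in members and 34.5% of the 1559 distal ones in biological sample 3. The shares were 8.38% and 23.03% in sample 4, 77.0% and 84.5% in sample 5, and 24.8% and 51.0% in sample 6. Each of the 4 libraries was lower in members, by -13.3 points ± 9.58 on average (SD, n = 4; exact two-sided sign-flip test, p = 0.13, adjusted p = 0.3125, again the smallest p possible). The gap was -20.4 points in samples 4 and 6 and -6.14 in samples 3 and 5. JunB held 50.6% of the positions in members and 77.2% of the distal ones. With sc7202 the shares were 86.1% and 94.1% in sample 3 and 59.4% and 77.4% in sample 4. All 7 KCl libraries of FosB, JunB and sc7202 met at 26 positions in members (4.63%) and at 208 in distal peaks (13.3%). The KCl sc52 peaks, to which the labels attach the positions, were also less frequent in members in samples 4 (22.1% and 39.96%) and 6 (53.5% and 83.8%). In sample 3 their shares were 87.5% and 87.75%, and in sample 5 they were 97.7% and 95.2%. Whether the gap of FosB differs from that of sc52 was not tested.

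**Figure D4:**
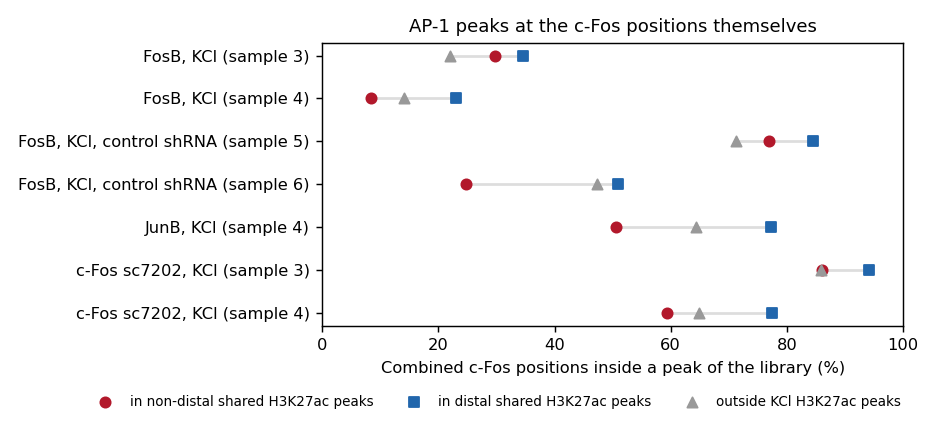
Share of combined c-Fos positions that lie inside a peak (x axis, %) for each of the 7 KCl libraries other than sc52. Red circles are positions in the 534 promoter-proximal peaks, blue squares those in distal peaks acetylated in both conditions and grey triangles those outside H3K27ac peaks. Red lies to the left of blue in all 7 libraries.

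The KCl peaks of FosB in members were also centred farther from the position. In biological samples 3 and 4 the median distance from the c-Fos position to the centre of the nearest FosB peak in the same region was 127 bp and 107 bp in members, and 59 bp and 65.5 bp in distal peaks. In samples 5 and 6 it was 86.5 bp and 77.5 bp in members, and 55 bp and 54 bp in distal peaks. Of the members with a FosB peak, 48.1%, 55.4%, 91.4% and 69.4% had one over the position in samples 3 to 6, against 72.3%, 71.6%, 96.8% and 81.4% of distal peaks. For JunB the median distances were 71 bp and 56 bp. Peaks of c-Fos differed in the same direction with sc7202, at 67 and 51 bp in sample 3 and 81.5 and 57 bp in sample 4. With sc52 the distances were 66 and 50 bp, 82 and 55 bp, 0 and 11 bp, and 57 and 34 bp in samples 3 to 6. The nearest peak could lie anywhere in the region, and members were wider than these distal peaks (median 3670 bp against 2814 bp).

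Under c-Fos shRNA in biological sample 5, sc52 peaks still held 17.5% of positions in members, 11.2% of those in distal shared peaks and 2.81% of those outside H3K27ac. In sample 6 the shares were 0.891%, 0.898% and 0.307%. The 2 samples thus did not show the same order, and the difference between members and distal peaks was not tested.

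The c-Fos position was less central in promoter-proximal regions than in distal ones, though in both the positions were densest near the centre. Its median distance from the centre of the KCl H3K27ac peak was 676 bp (quartiles 256 and 1322 bp) in members and 289 bp (118 and 680 bp) in distal peaks. Taken as a share of the way from centre to edge, which allows for width, the medians were 35.04% and 20.7%. The comparison peaks could be described by their AP-1 peaks alone: KCl sc52 peaks of biological sample 3 centred at 21.5% of the way to the edge there and at 35.5% in members, and unstimulated ones at 21.3% and 31.5%. FosB peaks of sample 3 after KCl gave 20.9% and 33.15%.

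**Figure D5:**
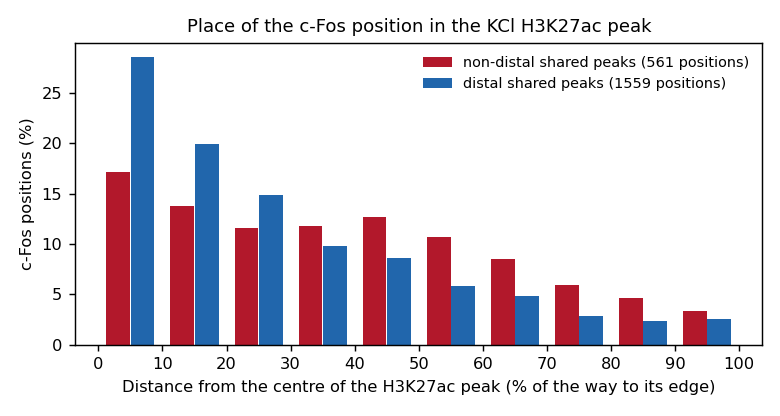
Place of the combined c-Fos positions within the KCl H3K27ac peak, as distance from its centre in % of the way to its edge (x axis), with the share of positions in each class (y axis, %). Red bars are the 561 positions in promoter-proximal peaks and blue bars the 1559 in distal peaks acetylated in both conditions. The medians are 35.04% and 20.7%.

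The acetylated regions of members were more often wider after KCl than those of the comparison, which the rule sets in part. A position had to lie inside the KCl peak, whereas the rule did not ask that it lie inside the silenced one. The KCl peak was wider than the silenced peaks it overlapped in 440 members (82.4%, against 71.7% of all shared non-distal peaks). The median log2 ratio of widths was 0.14 in members (5th to 95th percentile -0.13 to 0.78) and 0.08 in the comparison, a difference of 0.05 that is small beside the spread over peaks. At least 1.5 times the silenced width was reached by 60 members (11.2%, against 2.86% of all), and by 3.75% of the comparison weighted to the widths of members. Of the 485 members with a position inside a silenced peak, 37 (7.63%) reached that factor, as did 23 of the other 49. For the 485 the median log2 ratio exceeded that of the comparison by 0.035. No member was narrower by that factor, while 115 comparison peaks (1.17%) were. Each H3K27ac list merges 2 biological samples, so these values have no replicate error, and width also depends on depth. By the authors' scores the members stood high in the KCl list, at a median rank of 87.35% from the bottom against 76.0% for the comparison.

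The members with most c-Fos positions held 3, and there were 2 of them. The peak on chromosome 9 from 112085404 to 112095649 held positions 112090566, 112092081 and 112093146. JunB of biological sample 4 and c-Fos sc7202 of samples 3 and 4 each had a separate peak over all 3. FosB of sample 3 had peaks over the last 2, and another that ended at 112090544, short of the first. Its silenced peak reached from 112086488 to 112092661, and no unstimulated AP-1 library had a peak there. The peak on chromosome 12 from 50580839 to 50586263 was of similar width in silenced neurons (50581104 to 50586347) and was overlapped in 5 of the 7 libraries. The next 3 regions each held 2 positions, on chromosome 2 (84721530 to 84730419), chromosome 17 (87359756 to 87365096) and chromosome 12 (71444589 to 71452867). The regions on chromosome 17 and at 71444589 also had unstimulated sc52 peaks in both samples and sc52 peaks in both c-Fos shRNA libraries.

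The 5 members with the best-ranked peaks in all 7 KCl libraries were on chromosome 3 (55263797 to 55270978), chromosome 7 (126132763 to 126139258), chromosome 5 (31246704 to 31249317), chromosome 19 (4986239 to 4996878) and chromosome 13 (53068010 to 53079228). No FosB, JunB or sc7202 peak was listed there without stimulation, and the region on chromosome 13 alone had an unstimulated sc52 peak. Each held FosB peaks in both FosB shRNA libraries, and these covered the c-Fos position in the regions on chromosomes 3, 5 and 13 but not on chromosome 7. There the control shRNA FosB peak covered the position in biological sample 5 (126133314 to 126134612). In sample 6 the control peak (126133855 to 126134317) also ended short of it. On chromosome 19 the position was covered under FosB shRNA in biological sample 5 (4992778 to 4993387) and not in sample 6, whose FosB peak there ran from 4989671 to 4990065. All 5 regions also had sc52 peaks in 1 or both of the c-Fos shRNA libraries. On chromosome 3 the c-Fos position was 55265665, and the silenced H3K27ac peak ran from 55264279 to 55268658. The region on chromosome 5 was the narrowest, at 2614 bp, with its c-Fos position 135 bp from the centre. That on chromosome 19 joined 2 silenced peaks, from 4988999 to 4990792 and from 4992163 to 4995769, of which the second held the c-Fos position at 4993094.

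Among the members whose acetylated region widened most, the peak on chromosome 6 ran from 92889684 to 92894146 after KCl and from 92891173 to 92892739 before it, a log2 ratio of 1.51. Its c-Fos position, 92890857, lay outside the silenced peak. The next were on chromosome 13 (96899891 to 96904105, log2 ratio 1.47) and chromosome 2 (109513541 to 109521113, log2 ratio 1.40), and the c-Fos position lay outside the silenced peak in both. The members that narrowed most were on chromosome 12 (113672190 to 113675143, log2 ratio -0.54), chromosome 7 (128534568 to 128537773, -0.45) and chromosome 4 (129661100 to 129666164, -0.39). That on chromosome 12 still held sc7202 peaks in both samples and a JunB peak after KCl.

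Peaks in both c-Fos shRNA libraries were found at 42 members (7.87%, against 12.6% of all shared non-distal peaks). The 3 with the highest H3K27ac scores were the region on chromosome 16 described above, 1 on chromosome 4 (149608089 to 149615227) with unstimulated sc52 peaks in both samples, and that on chromosome 7 at 126132763. The last had no unstimulated peak, and its c-Fos shRNA peaks, from 126133609 to 126134540 in biological sample 5 and from 126133625 to 126134519 in sample 6, both held its c-Fos position at 126134361.

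In their surroundings, 77 members (14.4%) had a further combined c-Fos position within 10000 bp outside the H3K27ac peak, against 7.66% of the comparison. A distal H3K27ac peak listed after KCl alone lay within that distance of 39 members (7.30%) and of 4.56% of the comparison. The further positions come from the list that the rule used, so their shares are a description. By chromosome, members made up 3.29% (chromosome 11) to 7.85% (chromosome 16) of the shared non-distal peaks on the autosomes, and 3.80% on chromosome X.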

How the data were processed

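Reads were aligned with BWA to build mm9, per the submitters' processing notes, and peak names begin with MACS, per the deposited files. Neither tool's version nor the control used for calling is given in the sources used here. The deposited score of a peak, as the authors gave it, has a minimum of 50 in the AP-1 lists and was used only to rank or filter within a list. Other lists, such as the authors' combined c-Fos positions, hold positions without width.

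A position belonged to a peak when it lay between its start and end, and starts are printed counted from 1. Shares were computed per library with Python 3.11.15, numpy 2.4.6, scipy 1.17.1 and matplotlib 3.10.9. Libraries were the units of exact sign-flip and permutation tests, and peaks were not. The 5 tests adjusted together include the sc7202 change after KCl, whose p is not printed because the rule sets its direction. The labels number the biological samples, which pairs libraries across conditions. Width weighting used deciles of the 10357 shared non-distal peaks. The overlap steps were tested on simulated data.

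Regions were named by rule: the 5 with most positions, the 5 overlapped in most of the 7 KCl libraries, the 3 most widened and 3 most narrowed, and the 3 with best H3K27ac scores among those in both c-Fos shRNA lists, ties by mean rank of the AP-1 peaks over the KCl libraries without c-Fos or FosB shRNA. The members, lists and tests were chosen with earlier results of these data known. Input DNA and the enhancer classes were not analysed here, and neither were genes, distances to start sites and sequences, which need a reference of that build.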

Additional observations from a re-analysis of the deposited data

Results flagged for a closer look

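The difference between members and comparison had opposite signs in every library of 2 groups in 3 contrasts of the 5 examined, and it was not tested whether the groups differed. For c-Fos sc52 it was 47.2 and 18.5 points after KCl in biological samples 3 and 4, and -7.77 and -6.04 points without stimulation. For c-Fos sc7202 it was 57.8 and 55.9 points after KCl, and -2.25 and -0.059 points without stimulation, the last of these from lists that overlapped 3 members. For sc52 in biological samples 5 and 6 it was 55.05 and 47.3 points with control shRNA, and -4.48 and -5.12 points with c-Fos shRNA. The members were chosen by c-Fos after KCl from a list whose making is not described, and these values are a description of that choice. No library stood apart from the others of its kind among 10 sets of 4 KCl libraries examined with Dixon's criterion. That criterion looks for a lone outlying value and cannot flag 4 values that split 2 against 2. The KCl FosB shares of the comparison split in this way. They were 35.8% and 32.8% in biological samples 3 and 5, and 1.34% and 2.23% in samples 4 and 6 (control shRNA in 5 and 6). The absence of a flag therefore does not mean that the libraries were alike.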

How the results depend on the processing

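The 7 differences in share kept their direction under every alternative that was run, and no test passed 0.05 in any, which designs of 2 to 4 libraries cannot do. Without each biological sample in turn, the FosB difference between members and comparison was 25.7 to 38.2 points, that at c-Fos positions -16.1 to -8.98, FosB after KCl against before 13.7 to 44.6, sc7202 63.9 to 86.3, and FosB shRNA against control -42.9 to -20.4. With the replicate block by biological sample the last 3 were 29.1, 75.1 and -31.65 points (exact sign-flip p = 0.5 for both FosB values), which changed no call. The sc7202 and JunB differences between members and comparison moved to 46.9 and 26.9 points with AP-1 scores of at least 100, and to 70.9 and 54.7 against comparison peaks with no KCl sc52 peak. They moved to 32.6 and 16.4 when at least 2 of the 4 KCl sc52 lists replaced the combined list, which raised the number of members to 3955. Weighting by width moved sc7202 to 49.99 points and the log2 width difference to 0.046. In alternatives added after the data were seen (among them the splits into biological samples 3 and 5 or 4 and 6 given above), they were 59.7 and 42.45 points without peaks that had sc52 in unstimulated or c-Fos shRNA lists, and 39.03 and 43.5 against comparison peaks in at least 2 KCl sc52 lists, and the width difference was 0.035 for members with a position inside a silenced peak. Depth limits all lists and is unknown.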
